A study of Mus musculus with 2 samples.

Results

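Ccr1, Ccr2, Ccr3, Ccr6 and Ccr8 are 5 of the 55487 genes in the UMI matrices of a mouse CD4 T cell experiment, and they were taken by their gene symbols. All 5 encode G protein-coupled receptors for CC chemokines. CC chemokines are small secreted proteins that guide leukocytes along gradients into inflamed or resting tissue, and each receptor reads its own set of them. CCR2 is known as the receptor for CCL2 and CCL7 and as a homing receptor of monocytes and effector T cells, and CCR1 binds CCL3, CCL5 and CCL7. CCR3 is the eotaxin receptor of eosinophils and type 2 helper (Th2) T cells, CCR6 binds CCL20 and marks Th17 cells and B cells, and CCR8 binds CCL1 and is found on Th2 cells and on tissue regulatory T (Treg) cells. Treg cells are the suppressive CD4 T cells that depend on the transcription factor FOXP3, and a distinct population of them lives in adipose tissue.

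The cells came from 3 fat depots labelled BAT, SAT and VAT and from the spleen (SPLN) of wild-type male C57BL/6J mice 8 weeks of age, and the labels give no treatment for any group. Live CD4 T cells, double-sorted by TCRb, CD3 and CD4, were tagged with hashtag antibodies and run as 2 droplet libraries, experiment 1 with replicates 1 and 2 of each tissue and experiment 2 with replicates 3 and 4. The labels call these biological duplicates and do not say whether animals were pooled or whether the same animals gave all tissues. Fat was digested mechanically and with collagenase II and the spleen only mechanically, so tissue and digestion cannot be told apart in any comparison of fat with spleen. After cell filters, 12046 T cells remained, of which 848 held at least 1 Foxp3 UMI (called Foxp3-positive, median 5042.5 UMIs per cell) and 11198 held none (Foxp3-zero, median 4912 UMIs per cell). A Foxp3 count of 0 does not show that a cell lacks FOXP3.

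A total of 29153747 gene UMIs was deposited for experiment 1 and 43879975 for experiment 2, in barcodes of which 3985 and 9004 passed the cell filters, and 20 barcodes occurred in both libraries. Clusters led by genes of other cells (erythroid, fibroblast and endothelial, myeloid and B cell) held 943 further cells and were set aside. Of the T cells, 8953 carried the tag of 1 sample, 609 of them Foxp3-positive and 8344 Foxp3-zero, and only these entered comparisons over samples. The other T cells, those with several tags among them, stayed in the values over all T cells and in the clusters. The deposited antibody rows are named HT and the labels' tags TSA-H, and they were matched by the number that follows, so every tissue and replicate value rests on that match. Rows of tags that the labels do not list for a library held 0.0856% and 0.0964% of its tag UMIs. The tag of SAT replicate 1 was weak, with 42 of its 513 cells kept under stricter calls, and that of BAT replicate 4 kept 313 of 543. Cluster 3, with 1354 cells of which 1350 were from experiment 2 and a median of 1571 UMIs, met no marker rule and stayed unnamed.

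In mm10 coordinates, Ccr1 lies at chr9:123962124-123968692 on the minus strand, Ccr3 at chr9:124021972-124031689 and Ccr2 at chr9:124101950-124113557 on the plus strand, all in the chemokine receptor cluster of chromosome 9. Ccr8 lies at chr9:120092114-120094906 and Ccr6 at chr17:8236043-8257141, both on the plus strand. None of the 5 genes overlapped another annotated gene. The 250 bases before the RefSeq start (GRCm38.p6) are printed for Ccr1 and Ccr3, the receptors with the largest differences between Foxp3-positive and Foxp3-zero cells below. Capitals mark matches on either strand to short letter patterns of 4 transcription factor families. The pattern used for RUNX factors was TGTGGT. That for AP-1, a factor family induced by T cell stimulation, was TGANTCA. The GATA pattern, after the family of the Th2 factor GATA3, was AGATAA. The forkhead pattern, after the family of FOXP3, was TGTTTAC and matched neither window.
Ccr1, chr9:123968693-123968942, minus strand: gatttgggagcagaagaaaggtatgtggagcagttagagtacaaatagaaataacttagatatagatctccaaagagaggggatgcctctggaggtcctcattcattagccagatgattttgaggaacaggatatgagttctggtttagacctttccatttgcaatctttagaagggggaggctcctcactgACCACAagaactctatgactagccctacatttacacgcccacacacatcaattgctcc
Ccr3, chr9:124021721-124021970, plus strand: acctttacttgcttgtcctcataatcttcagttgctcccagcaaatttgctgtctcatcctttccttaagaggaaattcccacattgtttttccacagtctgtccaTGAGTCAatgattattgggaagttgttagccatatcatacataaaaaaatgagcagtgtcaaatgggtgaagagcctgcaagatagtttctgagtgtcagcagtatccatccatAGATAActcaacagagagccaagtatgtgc
The capitals in Ccr1 are a RUNX match on the opposite strand, 58 bases before the start. In Ccr3 they are an AP-1 match 144 bases and a GATA match 30 bases before the start, and no 2 of the matches overlap. The same letters stood in 14.0% (RUNX), 6.75% (AP-1), 9.99% (GATA) and 3.16% (forkhead) of 32817 RefSeq promoter windows of this length, so the matches describe the letters only.

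The first comparison set Foxp3-positive against Foxp3-zero T cells. All 5 receptors were found in a larger share of Foxp3-positive cells and at a higher level there. Ccr1 was detected in 42 of 848 Foxp3-positive cells (4.95%, exact 95% interval 3.59 to 6.64) and in 19 of 11198 Foxp3-zero cells (0.170%, 0.102 to 0.265). Ccr3 was detected in 89 Foxp3-positive cells (10.5%) and in 75 Foxp3-zero cells (0.670%). Ccr6 was found in 63 (7.43%) against 90 (0.804%) and Ccr8 in 55 (6.49%) against 114 (1.02%), so these 4 receptors were rare in Foxp3-zero cells. Ccr2 was the exception, since it was detected in 275 Foxp3-positive cells (32.4%) and also in 1695 Foxp3-zero cells (15.1%). These shares include cells with several tags. In the 609 Foxp3-positive cells with 1 tag they were 5.75% for Ccr1, 30.4% for Ccr2, 10.7% for Ccr3, 5.91% for Ccr6 and 6.24% for Ccr8. The highest Ccr6 count in a Foxp3-positive cell was 10 UMIs over all T cells and 3 in those with 1 tag. As a background for free RNA, the naive-like T cell clusters (5441 cells, median 5135 UMIs) gave a Ccr2 UMI in 0.625% of cells, Ccr3 and Ccr8 in 0.0551% each, Ccr6 in 0.0368% and Ccr1 in 0 cells, which allows a share of up to 0.0551%. Every share in Foxp3-positive cells lay above this background. The 5441 naive-like cells were themselves Foxp3-zero and part of the 11198 cells of that class. A higher share over the whole Foxp3-zero class was therefore largely set beforehand and does not show a signal above free RNA.

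Cells of at least 1300 UMIs were also thinned to that depth, and shallower cells were left out, which kept 828 of 848 Foxp3-positive and 10608 of 11198 Foxp3-zero cells. In this smaller set the order between the classes was the same for each of the 5 receptors. The thinned shares in Foxp3-positive and Foxp3-zero cells were 0.845% and 0.066% for Ccr1, 16.2% and 6.39% for Ccr2, and 4.11% and 0.189% for Ccr3. For Ccr6 they were 1.81% and 0.311%, and for Ccr8 2.05% and 0.292%. These intervals and limits cover counting error only.

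**Figure D1:**
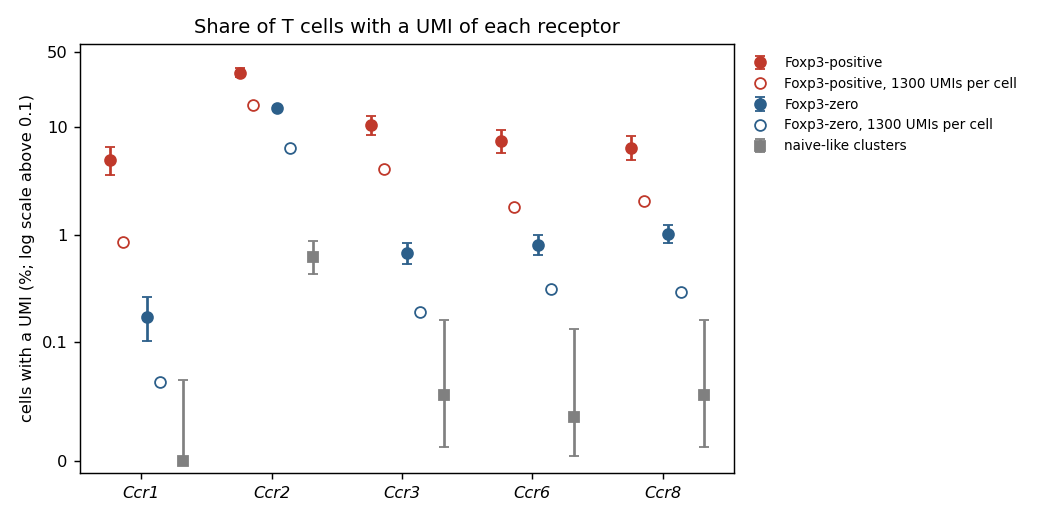
Share of T cells with at least 1 UMI of each receptor (percent, logarithmic axis above 0.1) in Foxp3-positive (red), Foxp3-zero (blue) and naive-like cells (grey squares). Filled points are at full depth with exact 95% intervals. Open points are after thinning to 1300 UMIs per cell, without shallower cells. For Ccr2 the full-depth shares are 32.4% and 15.1%, and for each of the other 4 receptors the Foxp3-positive share is several times the Foxp3-zero share.

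Read the other way, the cells with a receptor UMI differed in how often they were Foxp3-positive. Among all T cells, 848 of 12046 were Foxp3-positive, with 349 of 3729 in experiment 1 and 499 of 8317 in experiment 2. Of the T cells with a Ccr1 UMI, 42 of 61 were Foxp3-positive (68.9%), and of those with Ccr3, 89 of 164 (54.3%). The shares were 41.2% for Ccr6 (63 of 153) and 32.5% for Ccr8 (55 of 169). For Ccr2 it was 14.0% (275 of 1970), so most Ccr2 cells were outside the Foxp3-positive class. These shares differed between the libraries for some receptors, at 80.0% (32 of 40) in experiment 1 and 47.6% (10 of 21) in experiment 2 for Ccr1 and at 54.4% (31 of 57) and 33.3% (32 of 96) for Ccr6.

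Levels are given as CPM, the receptor's UMIs divided by all UMIs summed over the cells of a group and scaled to 1000000 UMIs. Over all T cells, Ccr1 stood at 10.7 CPM in Foxp3-positive and 0.452 CPM in Foxp3-zero cells, a ratio of 23.8 (95% counting interval 14.8 to 39.0). This ratio was 31.5 in experiment 1 and 12.5 in experiment 2. Ccr3 stood at 27.8 and 1.71 CPM (ratio 16.3, 12.6 to 21.2), Ccr6 at 20.4 and 2.91 CPM (7.0, 5.47 to 8.92), Ccr8 at 16.6 and 2.43 CPM (6.82, 5.19 to 8.93), and Ccr2 at 181 and 62.5 CPM (2.90, 2.70 to 3.11). The ratio was smallest for Ccr2. In the T cells with 1 sample tag, Ccr1 stood at 14.7 and 0.388 CPM (ratio 38.0, 21.6 to 70.3) and Ccr6 at 14.4 and 3.10 CPM (4.66, 3.29 to 6.5), so both ratios moved by over 1.5 times with the choice of cells.

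The 13 samples with at least 20 cells in each class entered edgeR's quasi-likelihood test, with the sample as a block. Of 12708 genes tested, 2173 passed an adjusted p of 0.05 (17.1%), with 747 higher (5.88%) and 1426 lower (11.2%) in Foxp3-positive cells. All 5 receptors were among the higher genes. The log2 fold change was 4.27 for Ccr1 (SE 0.44, adjusted p = 3.78e-15), 3.71 for Ccr3 (SE 0.34, adjusted p = 2.68e-18), 2.31 for Ccr8 (SE 0.38, adjusted p = 5.03e-07), 2.21 for Ccr6 (SE 0.35, adjusted p = 5.69e-08) and 1.29 for Ccr2 (SE 0.22, adjusted p = 0.000825). The median over all genes was -0.13. Ccr2 and Ccr6 were higher in Foxp3-positive cells in 13 of 13 samples. Ccr1 was higher in 9 and at 0 in both classes in 4, Ccr3 was higher in 9, lower in SPLN replicates 1 and 4 and at 0 in both classes in 2, and Ccr8 was higher in 11, lower in SPLN replicate 4 and at 0 in both classes in 1. With another scaling (RLE size factors) the calls were 1016 higher and 743 lower with a median of 0.00, and all 5 receptors remained higher.

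Without experiment 2, Ccr2 (log2 fold change 1.54, adjusted p = 0.147) and Ccr8 (1.49, adjusted p = 0.104) missed the threshold, and without cells holding markers of other cell types Ccr2 did (1.65, adjusted p = 0.0983).

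Other genes of the chemokine system moved unevenly with the class. Of 6 other CC or atypical receptors tested, 3 were higher in Foxp3-positive cells, among them Ccrl2 (log2 fold change 2.10), an atypical receptor that binds chemerin, and Ccr4 (1.72), a receptor for CCL17 and CCL22. Ccr7, the receptor that brings naive T cells to lymph nodes, was lower (-1.28). Of 4 CC chemokine genes tested, Ccl5 was lower (-1.66) and the other 3 did not pass. Of 18 signalling genes, 3 were higher and 6 lower, and the higher ones were Rgs16 (2.38), Rgs1 (1.31) and Rgs2 (0.91), which encode regulators that shorten G protein signals.

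Treg genes moved with the class. Of the Treg core list, 13 of 13 genes were higher in Foxp3-positive cells (median log2 fold change 3.20), among them Ctla4 (3.76) and Ikzf2 (3.67). Of the adipose Treg list, 14 of 14 tested genes were higher (median 2.79). Of the Th1 effector list, 11 of 13 were lower, and of the naive and recirculating list 9 of 10 were lower. Genes that respond within minutes to stimulation or tissue handling (immediate early list) were also higher in 7 of 11 cases (median 0.80).

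Markers of other cells were low in both classes but not equal. The B cell list summed to 368 CPM in Foxp3-positive cells and 188 CPM in Foxp3-zero cells, and 3 of its 4 tested genes were called higher. The myeloid list summed to 149 and 116 CPM, with Cst3 called higher and Fcer1g and Tyrobp called lower. The granulocyte, eosinophil and mast cell list summed to 1.18 and 0.274 CPM, with Siglecf, Epx and Il5ra at 0 in both classes. The part of these markers in the class differences was not tested, other than by leaving out cells that held them.

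Across tissues, Foxp3-positive cells carried Ccr2 mainly in SAT and VAT. Ccr2 stood at 227, 475, 138 and 247 CPM in SAT replicates 1 to 4 and at 375, 471, 247 and 332 CPM in VAT. In BAT it was 24.2, 115, 116 and 69.0 CPM and in spleen 125, 77.8, 33.2 and 12.4 CPM. Each SAT and VAT value lay above each spleen value, while BAT and spleen overlapped. The share of all genes whose samples separate in this way is not given, here or below. The means were 356 ± 93.2 CPM in VAT, 272 ± 143 CPM in SAT, 80.9 ± 43.7 CPM in BAT and 62.2 ± 50.2 CPM in spleen (SD, n = 4 each), and the neighbouring means of VAT and SAT and of BAT and spleen lay within their SDs. In cells, the mean share with a Ccr2 UMI was 52.0% in VAT, 44.4% in SAT, 13.7% in BAT and 6.98% in spleen.

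Ccr3 in Foxp3-positive cells was detected in fat and not in spleen. It stood at 8.07, 14.4, 16.5 and 19.7 CPM in BAT, at 16.4, 88.6, 21.0 and 86.1 CPM in SAT and at 38.1, 73.5, 56.1 and 48.3 CPM in VAT. In the spleen 0 of 177 Foxp3-positive cells from 4 samples had a Ccr3 UMI, which allows a share of up to 1.69%. The 12 fat samples lay above the 4 spleen samples without overlap. These levels rest on 58 UMIs in VAT and 45 in SAT, and in BAT on 5 UMIs in 5 cells.

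Ccr1 in Foxp3-positive cells was highest in VAT. It stood at 38.1, 38.9, 19.6 and 18.1 CPM in VAT, at 13.7, 32.2, 4.20 and 7.49 CPM in SAT, at 8.07, 28.7, 0 and 0 CPM in BAT and at 0, 10.6, 0 and 0 CPM in spleen. Every VAT value lay above every spleen value, and 24 of the 35 Foxp3-positive Ccr1 cells were in VAT. These levels rest on 32 UMIs in VAT, 12 in SAT, 3 in BAT and 3 in spleen.

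Ccr6 showed another order, with the lowest mean in SAT. It stood at 5.87, 8.64, 22.5 and 24.2 CPM in VAT, at 2.73, 8.05, 12.6 and 7.49 CPM in SAT and at 40.4, 0, 0 and 9.86 CPM in BAT, against 26.4, 28.3, 14.7 and 16.5 CPM in spleen. The SAT values lay below each spleen value, and the VAT and BAT values overlapped them. Ccr8 stood at 8.20, 88.6, 62.9 and 7.49 CPM in SAT, 20.5, 21.6, 11.2 and 36.2 CPM in VAT, 8.07, 14.4, 0 and 9.86 CPM in BAT and 0, 7.08, 18.4 and 0 CPM in spleen. Each fat depot overlapped the spleen for Ccr8.

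**Figure D2:**
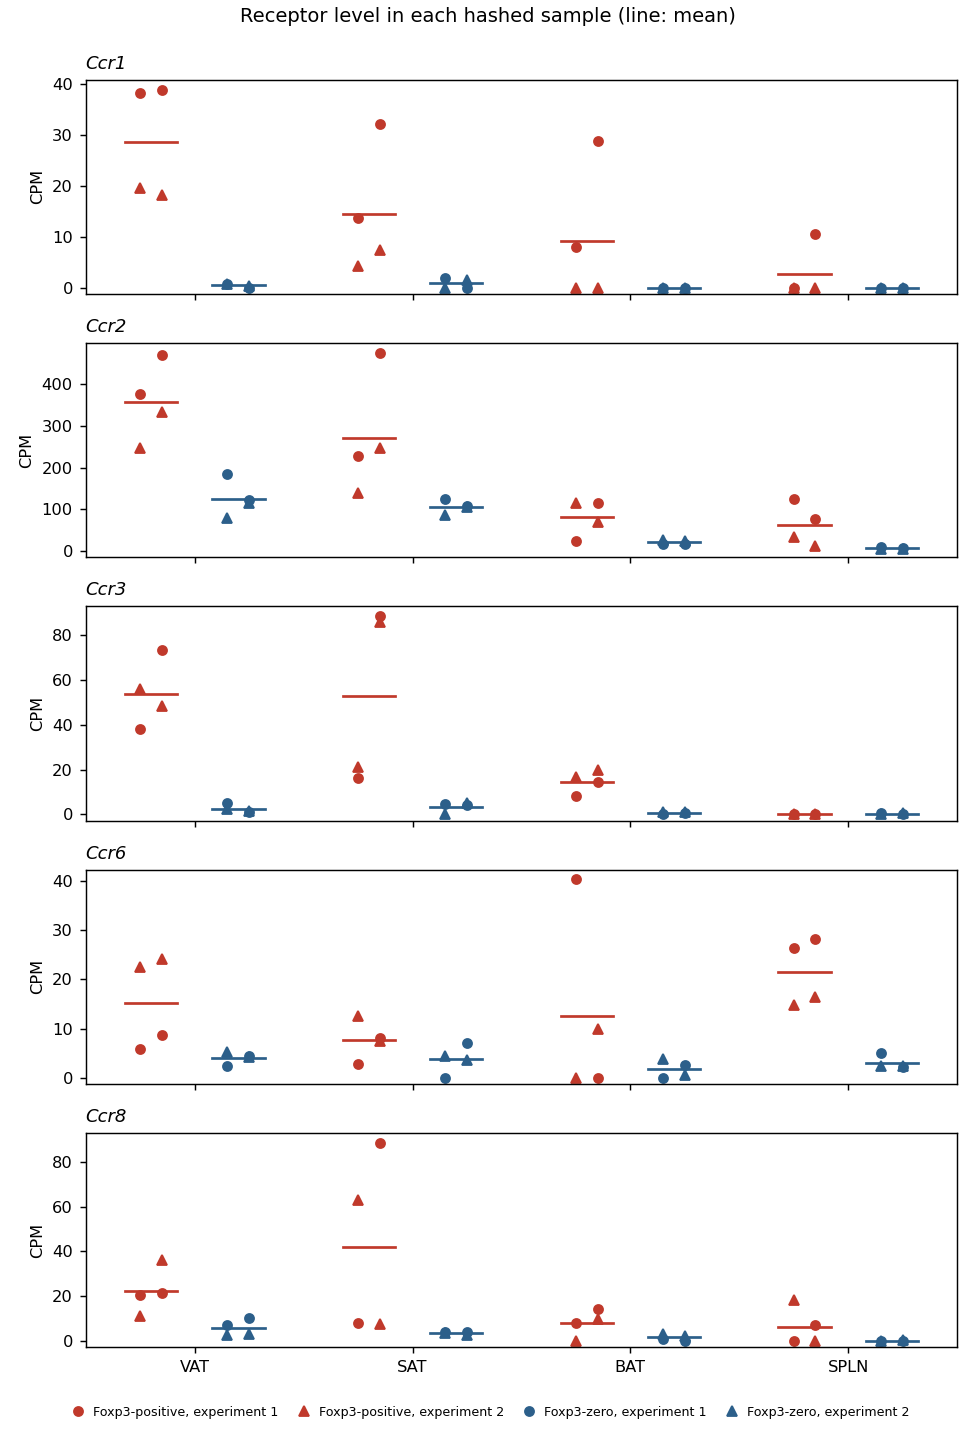
CPM of each receptor by tissue in Foxp3-positive (red) and Foxp3-zero (blue) cells; circles are samples of experiment 1, triangles of experiment 2, and lines are means of 4 samples. In Foxp3-positive cells, Ccr3 is at 0 in each spleen sample and above 0 in each fat sample, and Ccr2 in SAT and VAT, from 138 to 475 CPM, lies above spleen, from 12.4 to 125 CPM.

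In edgeR's fit over the Foxp3-positive cells of samples with at least 20 cells, 411 of 7859 genes were called between SAT and spleen (5.23%, with 3.36% higher and 1.87% lower in SAT), 582 between VAT and spleen (7.41%, with 4.28% higher and 3.13% lower in VAT) and 19 between VAT and SAT (0.242%, with 0.127% higher and 0.115% lower in VAT). SAT replicate 2 and BAT replicates 2 and 3, with 19, 13 and 15 Foxp3-positive cells, did not enter this fit, and BAT was not tested. Of the 5 receptors, Ccr3 and Ccr2 were higher in SAT than in spleen. Ccr3 was at least 12.3-fold higher in the SAT samples of the fit (adjusted p = 5.9e-05), set against a floor of 3 UMIs over all spleen cells, and Ccr2 had a log2 fold change of 1.92 (SE 0.38, adjusted p = 0.00662). In VAT against spleen, Ccr3 was at least 16.7-fold higher (adjusted p = 1.2e-06), Ccr2 had a log2 fold change of 2.58 (SE 0.35, adjusted p = 0.000156) and Ccr1 of 2.96 (SE 0.72, adjusted p = 0.00312). With 3 spleen UMIs of Ccr1, the pooled VAT ratio was 9.24 with a counting interval of 2.89 to 47.1. All 3 were in 1 cell of SPLN replicate 2, and the fitted value was 5.50 without that sample, where the spleen is at 0 and the value is no bound, and 2.60 without SPLN replicate 1, called in each case.

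The other receptor differences in Foxp3-positive cells did not pass. For Ccr6 the log2 fold change was -1.60 in SAT against spleen (SE 0.69, adjusted p = 0.216) and -0.57 in VAT against spleen (SE 0.56, adjusted p = 0.685). For Ccr8 it was 1.53 (SE 0.76, adjusted p = 0.326) and 1.48 (SE 0.74, adjusted p = 0.289). The SAT value of Ccr8 was 0.083 without SAT replicate 3 and 2.61 without SPLN replicate 3, and the VAT value ranged from 1.00 to 2.52 with each sample left out. Between VAT and SAT, no receptor passed, and the largest log2 difference was that of Ccr1, 1.51 (SE 0.63, adjusted p = 0.607). The same fit called 10 of 11 immediate early genes higher in VAT than in spleen (median log2 fold change 4.85) and 8 of 11 in SAT (4.14), and the part of tissue handling in the receptor differences was not tested. Of the adipose Treg list, 9 of 14 were higher in VAT and 6 of 14 in SAT.

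In Foxp3-zero cells Ccr2 followed the same order at lower levels. It stood at 186, 122, 78.2 and 116 CPM in VAT, at 125, 108, 85.9 and 105 CPM in SAT and at 17.2, 16.9, 27.0 and 23.1 CPM in BAT. In spleen it was 9.61, 6.15, 6.01 and 5.11 CPM. Each fat depot lay above the spleen without overlap, and SAT and VAT above BAT. Against spleen, the log2 fold change was 4.16 in VAT (SE 0.29, adjusted p = 2.9e-07), 3.91 in SAT (SE 0.29, adjusted p = 4.5e-07) and 1.77 in BAT (SE 0.40, adjusted p = 0.0200). These fits called 4065 of 12796 genes in VAT (31.8%, with 18.2% higher and 13.5% lower), 4489 in SAT (35.1%, with 19.4% higher and 15.6% lower) and 850 in BAT (6.64%, with 4.35% higher and 2.29% lower). The BAT call was lost when BAT replicate 3, BAT replicate 4, SPLN replicate 2, SPLN replicate 3 or SPLN replicate 4 was left out (log2 fold change 1.49 to 1.93 over all samples left out) and after thinning (1.48, adjusted p = 0.285).

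Ccr8 in Foxp3-zero cells was counted almost only in fat. It stood at 6.96, 10.3, 2.69 and 3.31 CPM in VAT, at 4.11, 4.20, 3.36 and 2.63 CPM in SAT, at 0.884, 0, 3.07 and 2.35 CPM in BAT and at 0, 0, 0 and 0.222 CPM in spleen. The spleen value was 1 UMI, against 57 in VAT, 37 in SAT and 16 in BAT. All 3 depots passed the test against spleen, with adjusted p = 8.3e-07 for VAT, 2.3e-05 for SAT and 0.0118 for BAT. The pooled ratios were 61.9 (10.7 to 2487) in VAT, 42.1 (7.10 to 1706) in SAT and 21.5 (3.34 to 901) in BAT, with counting intervals this wide because of the single spleen UMI. The BAT call was lost without BAT replicate 3.

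Ccr3 in Foxp3-zero cells stood at 4.48, 4.20, 0.336 and 5.01 CPM in SAT, at 4.92, 1.09, 2.20 and 1.65 CPM in VAT, at 0, 0.527, 1.02 and 0.941 CPM in BAT and at 0.565, 0, 0 and 0.666 CPM in spleen. It was higher in SAT (log2 fold change 3.12, SE 0.75, adjusted p = 0.00129) and in VAT (2.68, SE 0.79, adjusted p = 0.00899) than in spleen, and the BAT difference did not pass (0.92, SE 1.07, adjusted p = 0.736). VAT lay above the spleen without overlap and SAT overlapped it. Ccr6 was 2.46, 4.35, 5.13 and 4.30 CPM in VAT, 0, 7.0, 4.36 and 3.69 CPM in SAT, 0, 2.63, 3.75 and 0.470 CPM in BAT and 5.09, 2.20, 2.35 and 2.44 CPM in spleen, and did not pass in any depot. Ccr1 gave 17 UMIs in all Foxp3-zero cells with a tag, too few to test, with 11 in SAT, 6 in VAT and none in BAT or spleen. Between VAT and SAT, where 443 genes were called (3.46%, with 1.53% higher and 1.93% lower in VAT), none of the 4 receptors tested passed. In these fits 11 of 11 immediate early genes were higher in SAT, 10 of 11 in VAT and 7 of 11 in BAT than in spleen.

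Whether the class difference of a receptor depended on tissue was tested as the difference in fat minus that in spleen, which called 126 of 12708 genes (0.992%, with 0.181% above 0 and 0.811% below). Ccr2 was called, with a class difference that was smaller in fat than in spleen by 1.64 on the log2 scale (value -1.64, SE 0.29, adjusted p = 1.6e-05). Its pooled ratio of Foxp3-positive to Foxp3-zero CPM was 2.93 (2.61 to 3.29) in VAT, 2.30 (2.00 to 2.65) in SAT and 3.26 (2.06 to 4.95) in BAT, against 8.99 (6.21 to 12.9) in spleen. In Foxp3-positive cells the spleen value rests on 53 UMIs in 10 cells and the BAT value on 25 UMIs in 11 cells. The intervals treat UMIs of the same cell as independent, so they cover too little. The Ccr2 call was lost after thinning (-0.51, adjusted p = 0.957) and with stricter tag calls (-1.07, adjusted p = 0.299). The difference of Ccr6 (-0.57, adjusted p = 0.916) did not pass. Those of Ccr1, Ccr3 and Ccr8 did not pass either and rest on spleen counts at or near 0, for Ccr8 on 1 Foxp3-zero UMI.

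The T cells were clustered without the 5 receptors, so the receptor shares describe clusters built from other genes. In cluster 9, the Treg-like cluster led by Areg, Klrg1 and Il1rl1 beside Foxp3 (542 cells, 75.3% Foxp3-positive), Ccr2 was found in 51.5% of cells, Ccr3 in 19.0%, Ccr6 in 11.4%, Ccr8 in 10.5% and Ccr1 in 9.04%. Cluster 10, the other Treg-like cluster, led by Izumo1r, Gpr83 and Lrrc32 (367 cells, 56.1% Foxp3-positive), held Ccr6 in 4.36% of cells, Ccr2 in 1.09%, Ccr8 in 0.272% and no UMI of Ccr1 or Ccr3. Cluster 9 held 408 of the 848 Foxp3-positive cells and 39 of the 42 Foxp3-positive Ccr1 cells, 79 of 89 for Ccr3, 46 of 55 for Ccr8, 222 of 275 for Ccr2 and 45 of 63 for Ccr6. Ccr6 was the receptor with the most Foxp3-positive cells in cluster 10, with 9, followed by Ccr2 with 3.

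Outside the Treg-like clusters the receptors had different homes. Ccr2 was found in 72.2% of the cells of Th17-like cluster 15, in 46.4% of Th1-like cluster 1, in 48.3% of cluster 6, in 55.4% of cluster 19, which is led by the natural killer receptor genes Klrk1 and Klrb1c, and in 42.1% of cycling cluster 12 (median 11482.5 UMIs). Ccr6 was highest in cluster 15, at 21.5%. Ccr8 reached 18.9% in cluster 18, led by the cytokine genes Ccl4, Ccl1, Xcl1, Csf2 and Il4, then 11.8% in cluster 15 and 7.94% in cluster 12. Of the 90 Foxp3-zero Ccr6 cells, 27 were in cluster 15, 17 in cluster 9 and 12 in Tfh-like cluster 5. Of the 114 Foxp3-zero Ccr8 cells, 38 were in cluster 1, 16 in cluster 15, 15 in cluster 18, 12 in cluster 12 and 11 in cluster 9. Of the 75 Foxp3-zero Ccr3 cells 24, and of the 19 Foxp3-zero Ccr1 cells 10, were in cluster 9, which is mostly Foxp3-positive.

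**Figure D3:**
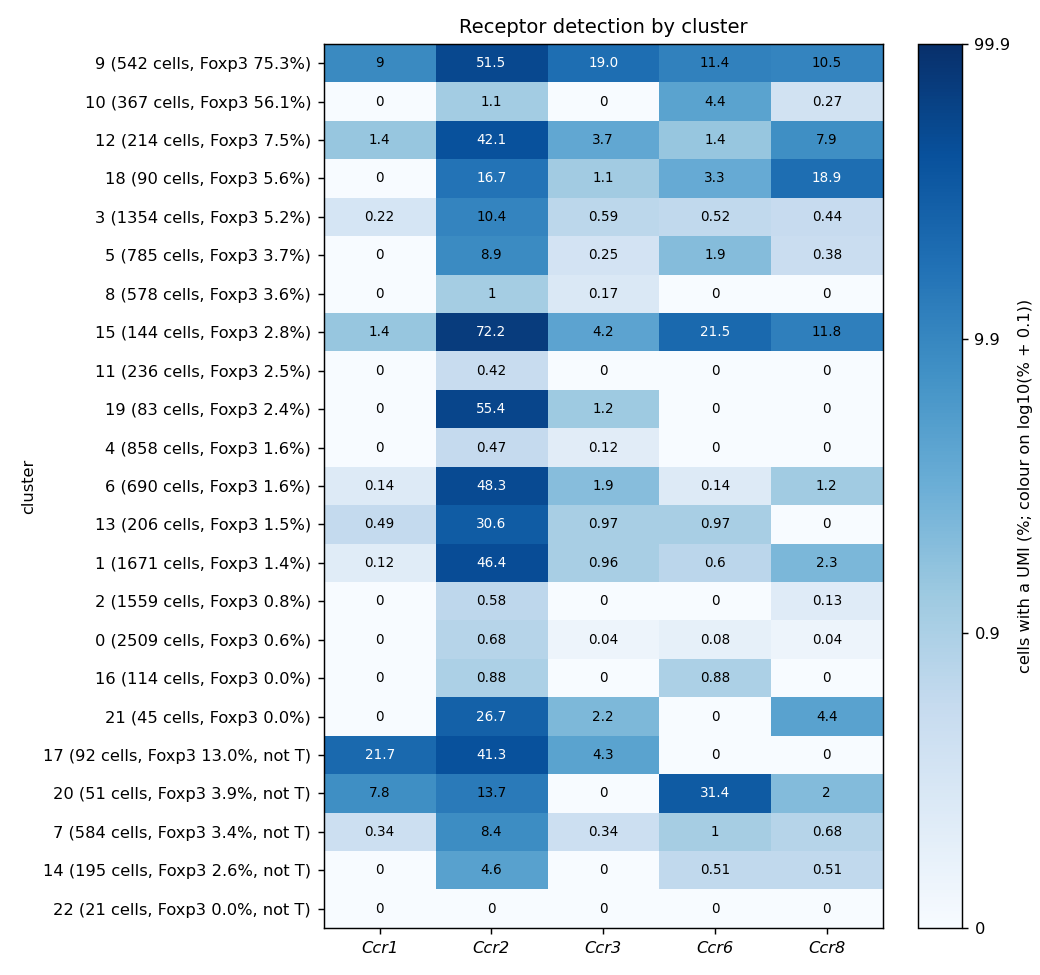
Percent of cells with a UMI of each receptor (columns) in each cluster (rows), ordered from the highest to the lowest share of Foxp3-positive cells, with clusters outside the T cells at the bottom. Cluster 9 holds all 5 receptors, with Ccr2 at 51.5%, Ccr3 at 19.0% and Ccr1 at 9.04%, whereas Ccr6 is highest among T cells in cluster 15 at 21.5% and Ccr8 in cluster 18 at 18.9%.

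Receptors were next read together in single cells with 1 sample tag. At least 1 of the 5 receptors was detected in 235 of 609 Foxp3-positive cells (38.6%) and in 1359 of 8344 Foxp3-zero cells (16.3%). At least 2 were detected in 99 Foxp3-positive cells (16.3%) and in 107 Foxp3-zero cells (1.28%). Among Foxp3-positive cells, 19 held 3 receptors and 3 held 4 (median 18933 UMIs), among Foxp3-zero cells 5 held 3 and none held 4, and no cell held all 5.

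Most co-detected pairs included Ccr2, which was also the receptor detected in the most cells, so its frequency alone would put it in most pairs. In Foxp3-positive cells, the product of the 2 shares gave 10.6 cells with Ccr2 and Ccr1, where 32 were found. It gave 19.7 for Ccr3 (53 found), 10.9 for Ccr6 (20 found) and 11.5 for Ccr8 (17 found). In Foxp3-positive cells, Ccr2 was found in 32 of 35 cells with Ccr1 (91.4%, 76.9 to 98.2), against 153 of 574 without Ccr1 (26.7%). It was found in 53 of 65 cells with Ccr3 (81.5%, 70.0 to 90.1), against 132 of 544 without Ccr3 (24.3%), and this direction held in 8 of 8 samples with at least 5 Ccr3 cells. After thinning, the Ccr2 share was 57.1% in Ccr1 cells against 13.9% in the rest, and 44.6% in Ccr3 cells against 13.0%. Ccr1 cells were deeper than the rest, with a median of 9067 UMIs against 4680, and Ccr3 cells less so, with 5316 against 4726.5. The higher Ccr2 share in Ccr1 cells was seen in 2 of 2 samples with at least 5 Ccr1 cells. The Foxp3-positive shares here and below pool fat and spleen, which differ in Ccr2. Of the 35 Ccr1 cells, 24 were in VAT and 1 in spleen.

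The overlap of Ccr2 with Ccr6 and Ccr8 was smaller. Ccr2 was found in 20 of 36 Foxp3-positive Ccr6 cells (55.6%) against 28.8% of the rest, and in 17 of 38 Ccr8 cells (44.7%) against 29.4%. After thinning the values were 25.0% against 15.8% for Ccr6 and 21.1% against 16.1% for Ccr8, and of the 3 samples with at least 5 Ccr8 cells 1 had the higher Ccr2 share in Ccr8 cells. Ccr3 and Ccr8 shared 3 Foxp3-positive cells, with Ccr8 in 4.62% of Ccr3 cells against 6.43% of the rest, and 1 Foxp3-zero cell, with Ccr8 in 1.85% against 1.04%. Ccr1 and Ccr3 shared 10 Foxp3-positive cells, with Ccr3 in 28.6% of Ccr1 cells against 9.58% of the rest.

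In Foxp3-zero cells Ccr2 was found in 35 of 54 Ccr3 cells (64.8%) against 14.7% of cells without Ccr3, and this direction held in 6 of 6 samples with at least 5 such cells. It was found in 39 of 87 Ccr8 cells (44.8%) against 14.7%, in 21 of 66 Ccr6 cells (31.8%) against 14.9%, and in 9 of 11 Ccr1 cells. After thinning it was 42.6% against 6.44% for Ccr3, 19.8% against 6.54% for Ccr8 and 16.7% against 6.60% for Ccr6. The direction held in 6 of the 9 samples with at least 5 Ccr8 cells and in 5 of the 8 with at least 5 Ccr6 cells. The shares pool fat and spleen, which differ in Ccr2.

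**Figure D4:**
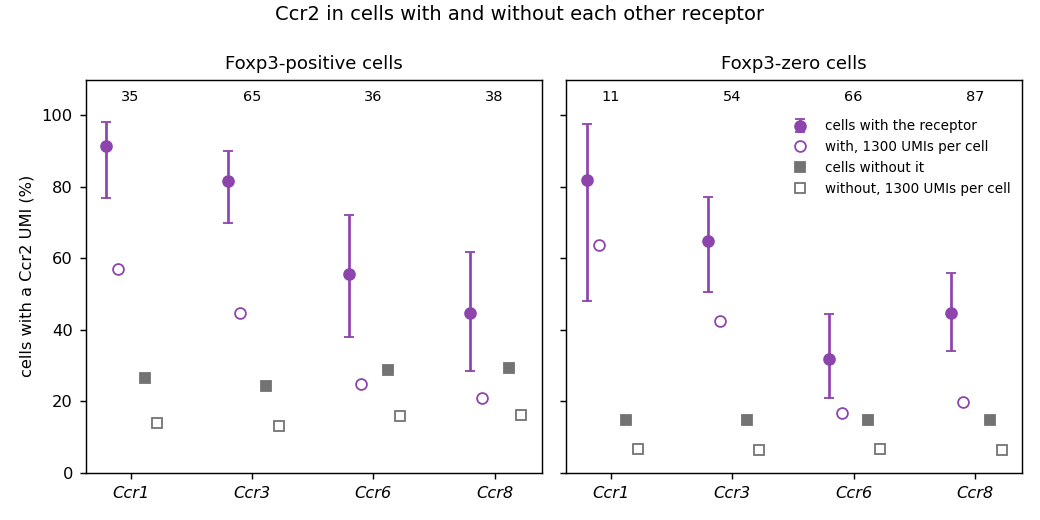
Percent of cells with a Ccr2 UMI among cells with each other receptor (purple circles, exact 95% intervals) and without it (grey squares), in Foxp3-positive and Foxp3-zero cells; open symbols are after thinning to 1300 UMIs and the numbers on top count the cells with that receptor. In Foxp3-positive cells the Ccr2 share is 91.4% with Ccr1 and 81.5% with Ccr3, against 26.7% and 24.3% without them. The shares pool fat and spleen, which differ in Ccr2.

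Cells with a receptor UMI were then compared with the other cells of their Foxp3 class. Among Foxp3-positive cells, 153 Ccr2-positive and 181 Ccr2-zero cells from 7 samples entered the fit, which called 181 of 6558 genes (2.76%), 78 higher (1.19%) and 103 lower (1.57%) in Ccr2-positive cells. Of 3 other receptors tested, Ccr1 (log2 fold change 3.43, SE 0.76, adjusted p = 0.00248) and Ccr3 (2.34, SE 0.43, adjusted p = 0.000216) were higher, Ccr8 did not pass (-0.77), and Ccr6 had too few UMIs. Ccr1 rests here on 38 UMIs in Ccr2-positive cells and 2 in Ccr2-zero cells, a ratio of 18.6 (counting interval 4.80 to 159). Cxcr6 (2.09), the receptor for CXCL16, was higher, while Ccr7 was lower (-2.26).

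The Ccr2-positive Foxp3-positive cells also carried more of several adipose Treg genes. Of that list, 4 of 14 were higher (median log2 fold change 0.94, against -0.02 over all genes): Ltb4r1 (1.99), a leukotriene B4 receptor, Klrg1 (1.71), an inhibitory receptor of differentiated lymphocytes, Il1rl1 (1.39), the IL-33 receptor ST2, and Rora (0.96), a nuclear receptor. S100a4 (1.68) and S100a6 (1.58), calcium-binding proteins of effector and memory T cells, were higher. The 5 largest increases were those of Cxcl3 (31 UMIs against 1, ratio 30.3, 5.05 to 1235), AA467197 (log2 fold change 3.47), Ccr1, Anxa1 (3.05), which encodes annexin A1, and Xcl1 (2.73). Cxcl3 and Xcl1 were each higher in 3 of 7 samples. Of the naive and recirculating list, 3 of 10 were lower, Ccr7 among them. Cd83 (-2.55) and Serpinb6b (-2.39) were the most reduced. Of the Treg core list, Capg was higher (0.93) and Lrrc32 lower (-1.85) of 12 tested.

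Among Foxp3-zero cells, 1238 Ccr2-positive and 6507 Ccr2-zero cells from 14 samples entered, and 2567 of 12599 genes were called (20.4%), 8.74% higher and 11.6% lower. Ccr3 (log2 fold change 2.65, SE 0.42, adjusted p = 2.8e-07) and Ccr6 (1.12, SE 0.35, adjusted p = 0.0143) were called higher in Ccr2-positive cells, Ccr3 in 10 of 14 samples and Ccr6 in 7 of 14, and Ccr8 did not pass (0.75, SE 0.35, adjusted p = 0.121). Of the Th1 effector list, 12 of 13 were higher (median 1.34), with Cxcr6 at 2.19, the chemokine gene Ccl5 at 1.72 and Nkg7 at 1.57, and of the Th17 list 6 of 7 (median 1.91), with Ltb4r1 at 3.53 and Serpinb1a at 2.32. The median over all genes was -0.05.

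The same cells had less of each of the 10 naive and recirculating genes (median -2.09), with Dapl1 at -3.65 and Ccr7 at -3.33. Ccl1, the ligand of CCR8, was lower (-4.14), with 13 UMIs in Ccr2-positive cells and 956 in Ccr2-zero cells. Ampd1 and Sostdc1 had no UMI in Ccr2-positive cells and were at least 10.7-fold and at least 3.66-fold lower, against a floor of 3 UMIs over the group. The largest increases were those of Klrc1 (3.99), a natural killer receptor, Ltb4r1, Il1rl1 (3.42), Dach2 (3.33) and Plxdc2 (3.32). Klrc1 was higher in 9 of 14 samples, and Dach2 and Plxdc2 in 6 each. Cell cycle genes were higher in 4 of 8 cases, among them Mki67 (1.32) and Top2a (1.31).

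For Ccr3, and for Ccr8 in Foxp3-zero cells, too few samples held 10 such cells, so cells were summed per experiment and tissue, a choice made after the counts were seen. Among Foxp3-positive cells, 60 Ccr3-positive and 293 Ccr3-zero cells from 4 such units gave 25 called genes of 6746 (0.371%, with 0.208% higher and 0.163% lower). Ccr2 was higher in the Ccr3-positive cells (log2 fold change 1.46, SE 0.19, adjusted p = 2.3e-08), and Ccr1 (0.49) and Ccr8 (-1.22) did not pass. Ube2c (2.94, higher in 2 of 4 units), a mitotic ubiquitin enzyme, Anxa1 (1.56), Neb (1.24), Ltb4r1 (1.05) and Klrg1 (0.93) were higher. Satb1 (-2.19) and Tcf7 (-1.57), genes of naive and recirculating T cells, were lower. Ccl4, a chemokine gene of activated T cells, had 0 UMIs in Ccr3-positive and 193 in Ccr3-zero cells. It was at least 15.4-fold lower against a floor of 3 UMIs, which covers counting error only and not differences between cells. This comparison is small: DESeq2 called 10 genes.

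Among Foxp3-zero cells, 46 Ccr3-positive and 4118 Ccr3-zero cells gave 252 called genes of 11579 (2.18%, with 0.44% higher and 1.74% lower), with a median over all genes of -0.36. Il13, a type 2 cytokine gene, had 44 UMIs in Ccr3-positive and 38 in Ccr3-zero cells (log2 fold change 6.59, higher in 3 of 4 units). Il1rl1 (3.14), Ltb4r1 (2.85), Klrg1 (2.84) and the Treg core genes Il2ra (2.80), Ctla4 (2.12) and Ikzf2 (2.11) were higher, with 6 of 12 Treg core genes higher and 10 of 10 naive and recirculating genes lower. Neb (4.09), Sdc4 (3.96), AA467197 (3.67) and Ptcra (3.67) were the next largest increases, and Ptcra had 6 UMIs and was higher in 1 of 4 units. Ccr2 was also higher (1.65, SE 0.21, adjusted p = 3.1e-12). After thinning, the Ccr2 value was 1.11 and did not pass (adjusted p = 0.127). Pdlim4, Fcer1g and Maml2 had no UMI in Ccr3-positive cells and were at least 2.99-, 2.77- and 1.99-fold lower.

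Ccr8-positive Foxp3-zero cells carried more of the Th2 genes, but not of these alone. In the 87 such cells with 1 tag, the Th2 list summed to 482 CPM against 142 CPM in cells without Ccr8. The adipose Treg list summed to 1011 against 214 CPM, higher in 9 of 9 samples with at least 5 Ccr8 cells. The Treg core list summed to 1406 against 447 CPM (8 of 9 samples) and the cell cycle list to 2410 against 608 CPM (6 of 9). In the fit of 75 Ccr8-positive and 4089 Ccr8-zero cells, 480 of 11579 genes were called (4.15%, with 1.27% higher and 2.88% lower), and of the Th2 list 4 of 5 were higher (median 2.40, against -0.19 over all genes): Il13 (3.27, with 19 UMIs and higher in 2 of 4 units), Il4 (2.93), Il1rl1 (2.40) and Gata3 (0.98), the Th2 lineage factor. Costimulatory genes Tnfrsf9 (2.74) and Tnfrsf4 (2.37), Il2ra (2.42) and Rgs16 (2.61) were higher, and so was Ccr4 (1.52, adjusted p = 0.0485). Tnfrsf4 and Il2ra were also among the Treg markers used to name clusters. The largest increases were those of Penk (5.89, higher in 1 of 4 units), which encodes proenkephalin, Khdc1a (4.34, higher in 2 of 4 units), Cysltr1 (3.85), a receptor for cysteinyl leukotrienes, Utf1 (3.57) and Arg1 (3.52), arginase. Naive and recirculating genes were lower in 9 of 10 cases, and Dapl1 had 0 UMIs against 2705 (at least 24.2-fold lower). Gzma, the granzyme A gene, had 3 UMIs against 1164 (ratio 0.0961, 0.0198 to 0.282). None of the other receptors passed: Ccr2 was at 0.54 (SE 0.19, adjusted p = 0.0915), Ccr6 at 1.30 and Ccr3 at -1.06.

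**Figure D5:**
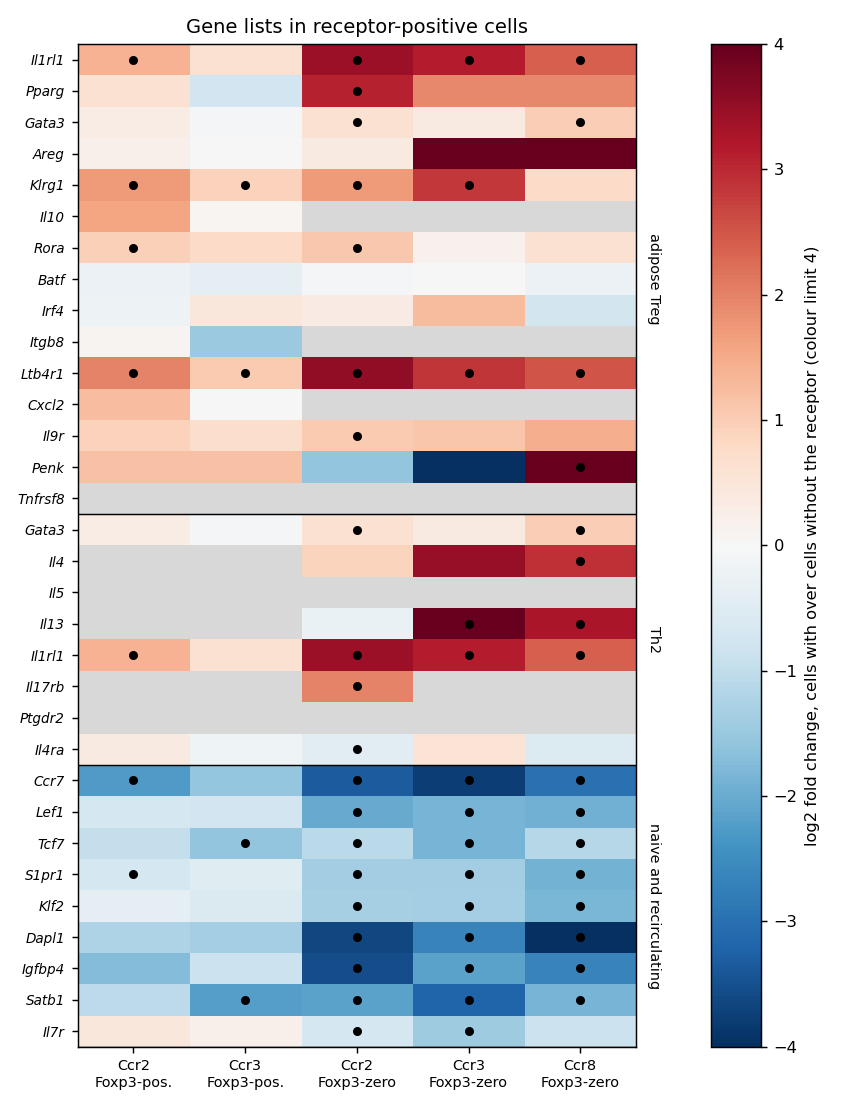
Log2 fold change (colour, limited to 4 in either direction) of the adipose Treg, Th2 and naive and recirculating genes (rows) in cells with Ccr2 or Ccr3 among Foxp3-positive cells and with Ccr2, Ccr3 or Ccr8 among Foxp3-zero cells (columns), each against cells of the same class without that UMI; dots mark an adjusted p under 0.05 and grey marks genes not tested. Of the 9 naive and recirculating genes drawn, 2 were called lower in each Foxp3-positive column and 8 or 9 in each Foxp3-zero column, and Il13 was called higher in the Ccr3 and Ccr8 columns.

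Ccr1 in both classes, Ccr6 in both classes and Ccr8 in Foxp3-positive cells had too few cells per sample for a fit, and their values are given without a test, for genes named after their values were seen. In 66 Foxp3-zero Ccr6 cells the Th17 list summed to 1349 CPM, against 178 CPM in cells without Ccr6, higher in 8 of 8 samples. The Treg core list was also higher in these cells, at 1789 against 449 CPM in 8 of 8 samples, and the cell cycle list lower, at 342 against 638 CPM. In 35 Foxp3-positive Ccr1 cells the adipose Treg list summed to 4666 CPM, against 812 CPM in cells without Ccr1, with 14 of 15 genes higher. Other lists were higher in these Ccr1 cells too, at 7164 against 2858 CPM for immediate early, 1247 against 398 CPM for Th17 and 933 against 270 CPM for Th2 genes. The naive and recirculating list was lower, at 997 against 2077 CPM. Cxcl2, a neutrophil-attracting chemokine gene, stood there at 1482 against 58.4 CPM, and Klrg1 at 649.6 against 139 CPM. In 38 Foxp3-positive Ccr8 cells the adipose Treg list summed to 2357 against 1058 CPM, and Tnfrsf9 to 495 against 70.2 CPM. The adipose Treg sum was higher in 2 of 2 samples with at least 5 Ccr1 cells and in 3 of 3 with at least 5 Ccr8 cells. All these values pool fat and spleen. Of the Ccr1 cells, 24 were in VAT and 1 in spleen, and of the Ccr8 cells 18 and 4. VAT gave 31.0% and spleen 29.1% of all Foxp3-positive cells with 1 tag. The part of tissue in these values was not tested.

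Markers of the other cells known for these receptors were read in the same T cells. The 8 granulocyte, eosinophil and mast cell genes, Siglecf and Epx among them, were all at 0 in the 46 Ccr1, the 119 Ccr3 and the 102 Ccr6 cells. In cells without these receptors the list summed to only 0.341, 0.344 and 0.343 CPM, with Siglecf, Epx and Il5ra at 0 there too. Zeros in so few cells therefore tell little. The list summed to 2.03 CPM in Ccr8 cells against 0.303 CPM in the rest, and to 0.583 against 0.284 CPM for Ccr2. The myeloid list summed to 261 CPM in Ccr1 cells against 117 CPM in the rest, with Csf1r, Itgam, Adgre1, Cd68 and C1qa at 0, and to 190 against 102 CPM in Ccr2 cells. The B cell list summed to 343 CPM in Ccr6 cells against 199 CPM in the rest, with Cd79a and Ms4a1 at 0, and to 292 against 199.7 CPM in Ccr3 cells, with Ms4a1 at 0. The fibroblast and adipose list summed to 81.0 against 13.0 CPM in Ccr1 cells, with Col1a1, Col3a1, Dcn, Lum and Ucp1 at 0, to 45.6 against 13.2 CPM in Ccr6 cells and to 36.1 against 13.2 CPM in Ccr3 cells. The cytotoxic lymphoid list summed to 134 against 44.3 CPM in Ccr2 cells. The part of these other markers in the results above was not tested.

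Across 30 sums of T cells by cluster and library, the genes whose log CPM followed each receptor most closely were listed by Pearson's r among 11265 genes, as a description with no test. The sums share libraries, and depth differs between clusters. Ccr2 was followed by Ctla2a, S100a6 and S100a11 (r = 0.97 each), and Ccr1 by Frmd5 (0.90), Ctsh (0.88) and Cxcl2 (0.85). Ccr3 was followed by Rapsn (0.90), Arl5a (0.89) and Klrg1 (0.88), Ccr8 by Serpinb6a (0.90), Ebi3 (0.88) and Ltb4r1 (0.88), and Ccr6 by Tspan13, Capg and Map6 (0.87 each).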

How the data were processed

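Droplet 3' single-cell RNA libraries of hashtagged CD4 T cells were read from the deposited matrices of raw UMI counts per gene and barcode, made with Cell Ranger 6.1.0 per the file headers and on mm10 per the submitters' processing notes. Antibody counts of the hashtags stood in the same matrices. The 5 receptors, the gene lists and the tests were chosen with earlier results of these data known.

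The cell filter asked for 500 detected genes or more, 1000 UMIs or more, and a mitochondrial share below 10%. Hashtags were called with a mixture model (posterior above 0.95; stricter: above 0.99 and a margin of 2 robust SD), and 296 and 1212 barcodes with several tags were left out of comparisons over hashed samples but not of values over all T cells or of clusters, with no further doublet caller. Cells were clustered with scanpy 1.11.5 (2000 variable genes without T cell receptor genes and the 5 receptors, 30 components, 15 neighbours, Leiden resolution 1), and clusters were named from marker lists.

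UMIs were summed per hashed sample and Foxp3 class. Genes with at least 30 UMIs were tested with edgeR 4.0.16 (quasi-likelihood, TMM, Benjamini-Hochberg adjusted p under 0.05): the classes with the sample as block (samples with 20 cells in each class), tissues with the experiment as a term (samples with 20 cells), and cells with a receptor against cells without it inside a class (samples with 10 cells in each). DESeq2 1.42.0, RLE size factors, other filters, thinning to 1300 UMIs (3 and 607 cells were shallower and were left out of it), stricter tags and left-out samples were alternatives. The fits were tested on simulated counts, and the class comparison there made a larger share of false calls than its threshold aims at.

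Named were the 5 receptors, up to 4 called genes per list with the largest change, and the 5 highest and 3 lowest called genes of each receptor comparison; a few genes that this rule would name are not reported here, though counts over lists include them. Intervals are exact (Clopper-Pearson) and, like floors of 3 UMIs, cover counting error only.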

Additional observations from a re-analysis of the deposited data

Results flagged for a closer look

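In 37 groups of 4 samples tested, 5 shares of cells with a receptor UMI stood apart from the other 3 samples of their group by Dixon's 95% critical value, which chance alone exceeds in about 1 of 20 groups. In 2 of the 5 the other 3 samples were at 0, so that 1 positive cell sets the result and that rate does not apply. In Foxp3-positive cells these were Ccr1 in SAT replicate 2, at 15.8% (3 of 19 cells, against 2.56% to 4.08% in the others), and Ccr1 in SPLN replicate 2, at 2.22% (1 of 45 cells, with the others at 0). In Foxp3-zero cells they were Ccr2 in SPLN replicate 1, at 3.38% (against 1.71% to 1.87%), Ccr3 in VAT replicate 1, at 2.22% (against 0.733% to 0.883%), and Ccr8 in SPLN replicate 4, at 0.114% (1 of 879 cells, with the others at 0).

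The class difference of Ccr2 differed between fat and spleen by a test of the difference itself (-1.64 on the log2 scale, edgeR adjusted p = 1.55e-05), and the call was lost after thinning and with stricter tag calls.

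Receptor UMIs were also counted in the clusters set aside from the T cells, above the limit that a count of 0 allows. Ccr1 was found in 21.7% (20 of 92 cells) and Ccr2 in 41.3% (38 cells) of myeloid-led cluster 17, Ccr6 in 31.4% (16 of 51) of B cell-like cluster 20, and Ccr2 in 8.39% (49 of 584) of erythroid-led cluster 7 and 4.62% (9 of 195) of fibroblast- and endothelial-led cluster 14. Cluster 7 was shallow, with a median of 1478 UMIs, and 574 of its 584 cells were from experiment 2. Beside haemoglobin genes, it was led by genes such as Gm12940, Abhd2 and Kmt2d that also led cluster 3, which stayed among the T cells. Whether its cells are erythroid or T cells was not tested. Of all UMIs of each receptor, the clusters set aside held 52.0% for Ccr1, 9.49% for Ccr6, 7.45% for Ccr2, 4.85% for Ccr3 and 2.48% for Ccr8.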

How the results depend on the processing

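Of 274 recomputed receptor values other than those with a sample left out, 259 kept their direction and their side of the threshold, and of all 725 none was newly called. The cause of the changes given here was not tested. Counts of called genes moved by over 1.5 times as follows. For the classes (2173 called) they were 1326 after thinning to 1300 UMIs, 853 without cells holding markers of other cells, 1196 without experiment 1 and 791 without experiment 2, and DESeq2 split its calls into 926 higher and 534 lower. For the class difference between fat and spleen (126) they were 57 with DESeq2 and 17 after thinning. In Foxp3-zero cells, thinning gave 234 calls for BAT, 1934 for SAT and 1565 for VAT against spleen, and VAT against SAT gave 277 with DESeq2, 144 after thinning and 171 with stricter tag calls. In Foxp3-positive cells, SAT against spleen gave 240 with DESeq2, 186 after thinning and 267 with stricter tags, VAT against spleen 342 with DESeq2 and 238 after thinning, and VAT against SAT 3 with DESeq2, 3 after thinning and 6 with stricter tags. Among Foxp3-zero cells, the Ccr2 comparison gave 1089 calls after thinning, the Ccr3 comparison 123 with DESeq2, and the Ccr8 comparison 165 with DESeq2 and 210 after thinning. Among Foxp3-positive cells, the Ccr2 comparison gave 120 with DESeq2 and 58 after thinning, and the Ccr3 comparison 10 and 7. Thinning of the Ccr3 and Ccr8 comparisons was chosen after seeing the data.

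Between the classes, Ccr8 without experiment 2 was 1.49, and Ccr2 was 1.54 without experiment 2 and 1.65 without cells holding other markers, all no longer called. That last setting dropped 281 of 609 Foxp3-positive and 2500 of 8344 Foxp3-zero cells. The class difference of Ccr2 between fat and spleen was -0.51 after thinning and -1.07 with stricter tags, and that of Ccr1, never called, changed sign to 4.77 with stricter tags. Ccr2 in BAT against spleen was 1.48 after thinning in Foxp3-zero cells, and in Ccr3-positive against Ccr3-zero cells of that class it was 1.11 after thinning, neither called. Uncalled differences of Ccr6 in Foxp3-zero cells changed sign in BAT against spleen (0.19, stricter tags), SAT against spleen (-0.10, thinned), VAT against spleen (-0.54, thinned) and VAT against SAT (-0.44 thinned, -0.062 stricter tags). In Foxp3-positive cells of VAT against SAT, Ccr8 turned to 0.077 with DESeq2 and Ccr3 to -0.20 with stricter tags, also uncalled. Shares of cells with a UMI fell by thinning to 0.845% in Foxp3-positive and 0.066% in Foxp3-zero cells for Ccr1, 16.2% and 6.39% for Ccr2, 4.11% and 0.189% for Ccr3, 1.81% and 0.311% for Ccr6, and 2.05% and 0.292% for Ccr8. With 200 genes as the only size filter and clusters of other cells included, the Foxp3-zero shares were 0.277% for Ccr1, 13.0% for Ccr2 and 0.838% for Ccr8.

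With each sample left out in turn, called genes in Foxp3-zero cells ranged from 564 (without SPLN replicate 2) to 929 for BAT against spleen and from 192 (without SAT replicate 1) to 645 for VAT against SAT, which also moved without SAT replicate 4, VAT replicate 3 or VAT replicate 4 (200, 231 and 277). In Foxp3-positive cells they ranged from 264 (without SAT replicate 1) to 459 for SAT against spleen and from 1 (without SAT replicate 1) to 48 (without SAT replicate 4) for VAT against SAT, with 10, 11 and 11 without VAT replicates 1, 2 and 4. In Foxp3-zero cells, log2 values ranged from 3.02 (without BAT replicate 3, not called) to 5.31 for Ccr8 and from 1.49 to 1.93 for Ccr2 in BAT against spleen, from -0.22 to 0.58 for Ccr6 in SAT against spleen, and in VAT against SAT from -0.91 to 0.079 for Ccr3 and from -0.11 to 0.70 for Ccr6. In Foxp3-positive cells of VAT against SAT they ranged from -0.61 to 1.33 for Ccr8 and from -0.024 to 1.51 for Ccr3.

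Whether samples with the same replicate number in different tissues share animals is not given in the labels. Deviations of same-numbered samples correlated from -0.125 to 0.0541. Each correlation rests on few samples, so it cannot show whether animals were shared. With the replicate block, called genes in Foxp3-zero cells numbered 813 for BAT, 4416 for SAT and 4014 for VAT against spleen and 405 for VAT against SAT, and in Foxp3-positive cells 407 for SAT and 598 for VAT against spleen and 27 for VAT against SAT, and no receptor call changed. At these depths Ccr1 had too few UMIs for the class comparison after thinning, without cells holding other markers and without experiment 1, and where DESeq2 gave no adjusted p, no value was counted.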

Other observations

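Other CC receptors were not alike between the classes. Ccr4 was detected in 12.4% of Foxp3-positive and 2.94% of Foxp3-zero T cells and Ccrl2 in 8.61% and 1.83%. Ccr9, the receptor for CCL25, was detected in 2.83% and 1.70%, and Ccr10, the receptor for CCL27 and CCL28, in 0.708% and 0.464%. Ccr7 ran the other way, at 31.1% and 46.2%. The atypical receptor genes Ackr2, Ackr3 and Ackr4 had no UMI in either class.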
